A study of Mus musculus with 6 samples.

Results

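Of 21553 genes measured in cultured mouse hippocampal neurons, 48 stood close to their untreated level after 0.5 h of KCl and at 2.5 times it or more after 3 h. The 48 were chosen on the measured values themselves. A gene was taken when its untreated mean was at least 1 cRPKM (an RPKM, that is reads scaled to gene length and library total, computed by the authors), its 0.5 h mean at most 1.3 times the untreated mean, and its lower 3 h library at least 2.5 times its higher untreated library. There were 12326 genes at an untreated mean of at least 1 cRPKM, 94 of them met the 3 h condition, and 56 of these also met the 0.5 h condition. Of the 56, 8 were then left out because their symbols begin like those of some large gene families: Zfp184 (6.24 times untreated at 3 h), Rorb (5.63), Bdnf (5.23), Nr4a3 (4.69), Dusp14 (4.59), Dusp16 (4.04), Mafk (3.00) and Dusp10 (2.93). The remaining 48 are called late-only genes here; 47 carry a gene symbol and 1, ENSMUSG00000079254, does not.

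The neurons came from C57bl/6 mouse embryos at stage E16.5 and were kept in culture for 10 days. They were left untreated, or were kept in 55 mM KCl for 0.5 h or for 3 h before RNA was taken, and each of the 3 groups has 2 libraries. All groups share the strain, the tissue and the culture time, and no gene was altered in any of them. The study's title concerns a splicing network that responds to neuronal activity and its part in autism. Per the labels each group is a biological duplicate, but whether separate cultures or animals were used is not said, and p-values therefore reflect only how far these samples differ. Library totals ran from 98882007 to 141865913 counts, and the lowest count of a late-only gene in any library was 171.

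Raised extracellular KCl depolarises neurons and lets calcium in, and calcium signalling then switches on transcription in waves. The first wave consists of immediate early genes, many of them transcription factors, which need no new protein. A later wave encodes secreted factors, receptors, enzymes and signalling inhibitors, and part of it depends on proteins made in the first wave. The transcription factor CREB, which calcium and cyclic AMP activate, binds a short palindrome known as the cAMP response element and is known to act at genes of both waves.

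The libraries numbered 2 stood above those numbered 1 in summed astrocyte markers in every group. The astrocyte filament gene Gfap stood at 22.4 and 307 cRPKM in untreated neurons, 22.8 and 335 at 0.5 h and 24.6 and 475 at 3 h, each pair in the order replicate 1 and replicate 2. Over the 7 astrocyte markers the summed level was 854 and 1270 cRPKM in untreated neurons, 863 and 1408 at 0.5 h, and 911 and 1899 at 3 h, and all 7 were higher in replicate 2 at 3 h. At 3 h edgeR called 0 of the 7, at a median log2 change of 0.39; 1 was higher and 1 lower at an unadjusted p under 0.05 and by DESeq2, and 3 were higher and 1 lower with replicate number as a block. Of all genes tested, edgeR called 8.71% higher and 6.84% lower, and 18.6% in each direction with the block. Over the 8 pan-neuronal markers the sum was 2213 and 2006 cRPKM in untreated neurons, 2151 and 1880 at 0.5 h, and 1794 and 1304 at 3 h. Neuronal transcripts were thus abundant in all libraries, but in 3 h replicate 2 the astrocyte sum was above the neuronal one. Such sums do not measure shares of cells. The microglial sum lay between 1.08 and 1.37 cRPKM and the endothelial sum between 0.94 and 1.40 cRPKM. Untreated, the oligodendrocyte-lineage sum was 294 and 204 cRPKM and the interneuron sum 345 and 557. Replicate 2 was the lower in the former and the higher in the latter in every group. Astrocyte markers differed unequally: untreated Aldoc was at 216 and 322 cRPKM, but Slc1a3 at 390 and 398 and Gja1 at 129 and 135. In bulk RNA, fewer cells of a type and less RNA per cell cannot be told apart.

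At 3 h the late-only genes stood between 2.69 times (Impdh2) and 12.3 times (Thbs1) their untreated means, with a median of 4.25 times. Of the 48, 3 genes reached 10 times, 11 reached 6 times, 28 reached 4 times and 45 reached 3 times. Their untreated means ran from 1.09 cRPKM (Msantd1) to 93.3 cRPKM (Vim), with a median of 4.74 cRPKM, and their 3 h means from 4.22 to 384 cRPKM. The median log2 change at 3 h was 2.14 (range 1.48 to 3.65), beside a median of -0.02 over all 15895 genes tested. At 0.5 h the means were 0.934 to 1.29 times untreated with a median of 1.10 times, and 24 genes lay within 10% of untreated. The 0.5 h values were not evenly spread about the untreated ones. The 0.5 h mean was above the untreated mean in 43 genes and below it in 5, and in 21 genes both 0.5 h libraries lay above both untreated ones. The same counts were not made over all genes. The median log2 change at 0.5 h was 0.118 in the 48, beside 0.0003 over all tested genes. Both conditions of the rule use the same untreated libraries, so it favours genes with low untreated values, and an early rise was not tested.

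**Figure D1:**
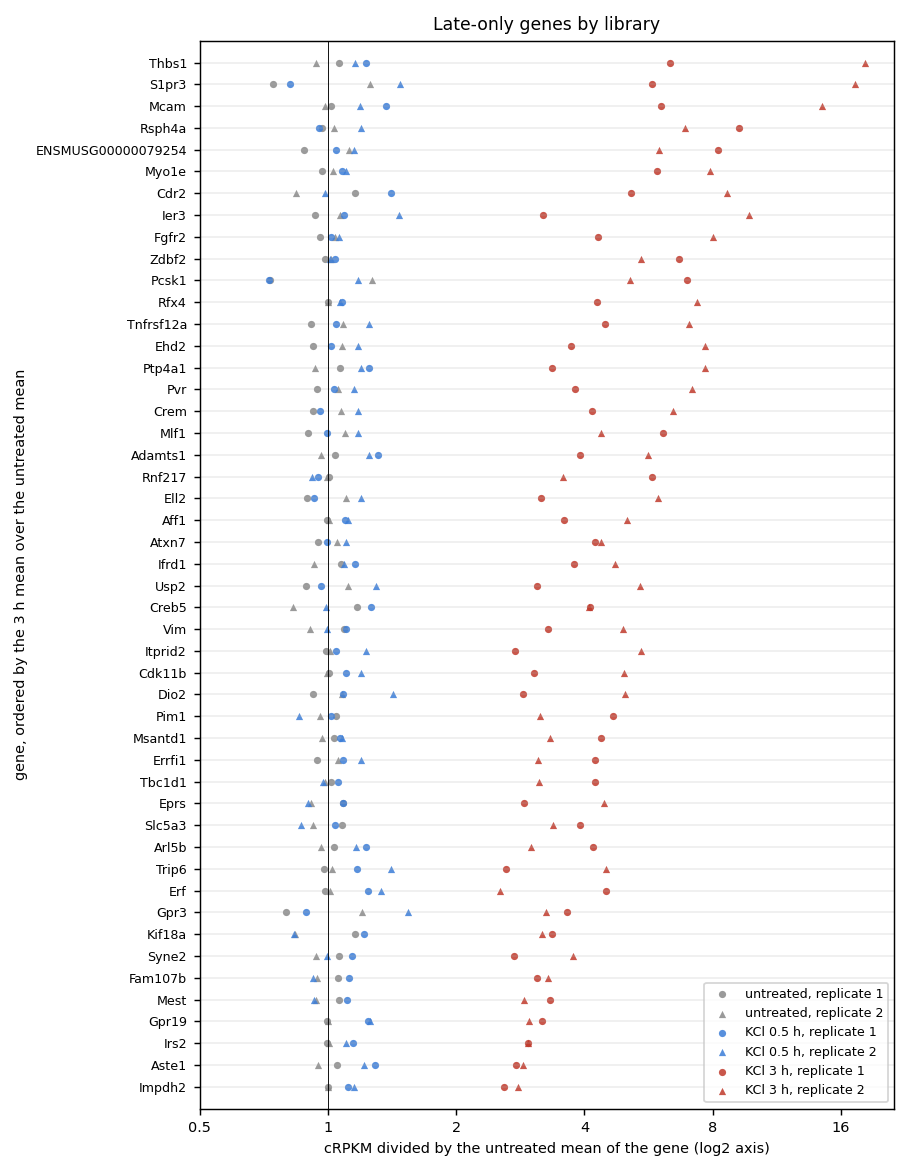
Level of each late-only gene in each of the 6 libraries, as cRPKM divided by the gene's untreated mean, on a log2 axis; colours mark untreated, 0.5 h and 3 h, and circles and triangles mark replicates 1 and 2. The untreated and 0.5 h points gather around 1, and all 3 h points lie beyond 2.5.

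Both 3 h libraries lay above both 0.5 h ones in 48 of 48 genes, and the rule sets them above both untreated ones. Where a gene's 3 h libraries are said below to lie above its others, this restates how it was chosen. The genes were chosen on these contrasts, so the following calls describe them and test nothing. With edgeR at an adjusted p under 0.05, 48 of 48 were called higher at 3 h than untreated, where 8.71% of all tested genes were called higher and 6.84% lower. Against 0.5 h, 48 of 48 were higher at 3 h, where 6.39% of all genes were. At 0.5 h against untreated, edgeR called 0 of 48, with 1 at an unadjusted p under 0.05, and DESeq2 also called 0; 0.0377% of all genes were called higher there. With replicate number as a block the shares of all genes called higher were 18.6% at 3 h against untreated, 15.6% at 3 h against 0.5 h and 0.0818% at 0.5 h, and the counts of late-only genes did not change. The calls lean on both untreated libraries: without untreated replicate 1, 13 of the 48 were called higher at 3 h, and without untreated replicate 2, 9 were. Without either 0.5 h library edgeR called 0 of 48, and 0 of all genes, at 3 h against 0.5 h, although 48 were higher at an unadjusted p under 0.05.

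Genes just inside the 3 h threshold were Erf, whose lower 3 h library was 2.505 times its higher untreated one, Trip6 (2.56 times) and Syne2 (2.57 times). Just outside were D16Ertd472e (2.49 times), Tcf7l1 (2.44 times) and Nedd9 (2.43 times). At the 0.5 h threshold Trip6 and Erf (both 1.29 times untreated) and Adamts1 (1.28 times) were inside, and Emd and Vps37b (both 1.31 times) and Arid5a (1.33 times) were outside. At the threshold of expression Msantd1 (1.09 cRPKM), Rsph4a (1.22) and Mcam (1.23) were inside, and Uaca, Mpp7 and Rfx2 (0.99 cRPKM each) were outside. The 0.5 h condition divided the genes past the 3 h condition into the late-only genes and 23 others, after the same families were left out, that were already at 1.31 to 22.6 times untreated at 0.5 h. These 23 stood at 3.04 to 37.4 times untreated at 3 h, with a median of 4.74 times, and are called early-and-late genes below.

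Replicate 2 exceeded replicate 1 at 3 h by a wide margin in a larger share of late-only genes than of genes at large, a comparison of shares that was not tested. In 19 of 48 (39.6%) replicate 2 was at least 1.5 times replicate 1, against 8.98% of the 12222 tested genes with a 3 h mean of at least 1 cRPKM. In 2 (4.17%) replicate 1 was at least 1.5 times replicate 2, against 4.59% of those genes, and 27 lay between. Among the 23 early-and-late genes the shares were 26.1% and 8.70%. In untreated neurons replicate 2 was past this limit in 3 of the 48 and replicate 1 in 0. Ier3 (3.03 times), S1pr3 (2.99 times), Thbs1 (2.86 times), Mcam (2.39 times) and Ptp4a1 (2.29 times) had the largest excess in replicate 2, and Erf (0.566 times), Rnf217 (0.618 times) and Pim1 (0.673 times) the largest deficit. The astrocyte sum of replicate 2 was also above that of replicate 1, at 1899 and 911 cRPKM at 3 h; its part in the spread was not tested. Without 3 h replicate 2 the rule finds 75 genes, and without 3 h replicate 1 it finds 163. All 48 are in both sets, which was fixed in advance, because leaving out a 3 h library can only loosen the 3 h condition.

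**Figure D2:**
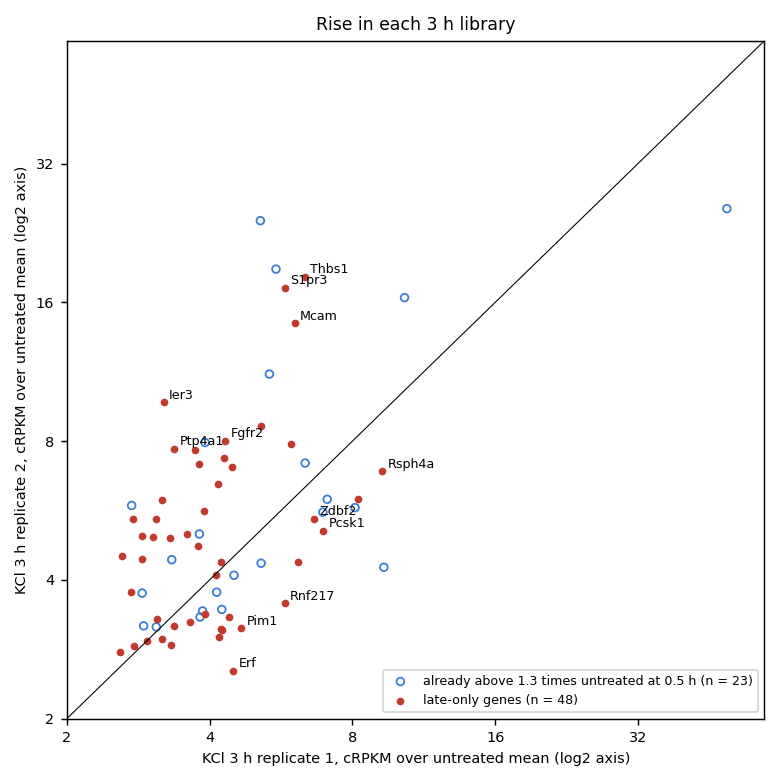
Level in 3 h replicate 2 against level in 3 h replicate 1, each divided by the gene's untreated mean, on log2 axes; filled points are the 48 late-only genes, open points the 23 early-and-late genes, and the line marks equal levels. Thbs1, S1pr3, Mcam and Ier3 lie well above the line, and Erf, Rnf217 and Pim1 below it.

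The cAMP response element was carried by a larger share of late-only promoters than of promoters at large. RefSeq (assembly GRCm38.p6) gives a promoter window, from 250 bases before to 50 after the start, for 43 of the 48 genes; 9 of these have more than 1 window, and a gene was counted if any window held the motif. TGACGTCA, the full palindrome, was in 11 of 43 (25.6%), against 1 of 16 early-and-late genes (6.25%), 3.76% of the 9554 genes at an untreated mean of at least 1 cRPKM, and 2.03% of all 27025 genes with a window. Its shorter core TGACG, which every full element also holds, was in 27 of 43 (62.8%), against 7 of 16 (43.8%), 36.3% and 23.1% in the same order. The motif was no part of the rule, and the shares were not tested against each other. The early-and-late group held 38 genes before 15 were left out by symbol, and only 16 of the remaining 23 have a window. Its share therefore does not describe early genes at large. With no symbol left out, 11 of 51 late-only promoters (21.6%) held the full element, 0 of them among the 8 added. The 11 genes are Arl5b, Creb5, Dio2, Ell2, Errfi1, Kif18a, Mcam, Mlf1, Pcsk1, Trip6 and Zdbf2. Of them, 4 are among the 16 with a window and an excess of at least 1.5 times in replicate 2, 0 among the 2 with such an excess in replicate 1, and 7 among the 25 between.

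The element lay before the start in 10 of the 11 and within 100 bases of it in 8; in Kif18a it lay after the start. The stretches are printed here, from 20 bases before the element to 20 after it or to the last base before the start, because they place the element, which the search fixed and which is therefore the same in each, in its surroundings. Capitals mark the element, and each stretch is read in the direction of its gene.
Pcsk1 (chr13:75089759-75089806, + strand): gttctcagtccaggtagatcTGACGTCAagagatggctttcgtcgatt
Errfi1 (chr4:150854999-150855046, + strand): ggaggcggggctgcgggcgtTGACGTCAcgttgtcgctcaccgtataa
Zdbf2 (chr1:63273190-63273237, + strand): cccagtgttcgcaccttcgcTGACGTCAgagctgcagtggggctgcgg
Mcam (chr9:44134609-44134656, + strand): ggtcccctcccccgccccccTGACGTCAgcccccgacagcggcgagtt
Mlf1 (chr3:67374023-67374070, + strand): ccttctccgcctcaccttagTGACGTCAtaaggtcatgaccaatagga
Creb5 (chr6:53287238-53287285, + strand): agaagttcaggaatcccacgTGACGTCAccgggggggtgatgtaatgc
Trip6 (chr5:137314242-137314284, - strand): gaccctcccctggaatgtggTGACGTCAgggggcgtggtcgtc
Dio2 (chr12:90739106-90739153, - strand): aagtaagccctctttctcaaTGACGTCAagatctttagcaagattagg
Arl5b (chr2:15055179-15055226, + strand): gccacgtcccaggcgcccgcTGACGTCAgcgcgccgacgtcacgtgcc
Ell2 (chr13:75707266-75707313, + strand): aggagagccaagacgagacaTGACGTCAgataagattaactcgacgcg
Counted from the start, the first base of the element is at -78 in Pcsk1, -51 in Errfi1, -59 in Zdbf2 and -29 in Mcam. It is at -54 in Mlf1, -45 in Creb5, -23 in Trip6, -95 in Dio2, -121 in Arl5b and -198 in Ell2. A match is a description of these letters, not a site shown to be bound.

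Of 10 other motifs searched on both strands in the same windows, most were in late-only promoters at shares nearer to those of expressed genes. The E-box CACGTG was in 18.6% of late-only genes and 11.9% of expressed genes, the EGR site GCGNGGGCG in 18.6% and 13.3%, and the TATA box TATAAA in 14.0% and 7.96%. The AP-1 site TGANTCA was in 9.30% and 5.47%, the NF-kappaB site in 9.30% and 12.7%, and the antioxidant response element TGACNNNGC, which can overlap the core, in 16.3% and 16.9%. The serum response element was in 2 late-only genes, Myo1e and Trip6 (4.65% and 1.59%), and the ATF4-C/EBP composite TGATGNAAT in Creb5 alone (2.33% and 0.555%). The heat shock element and the MEF2 site were in 0 of 43, against 0.523% and 0.429% of expressed genes; no match says only that these letters are not in this window.

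**Figure D3:**
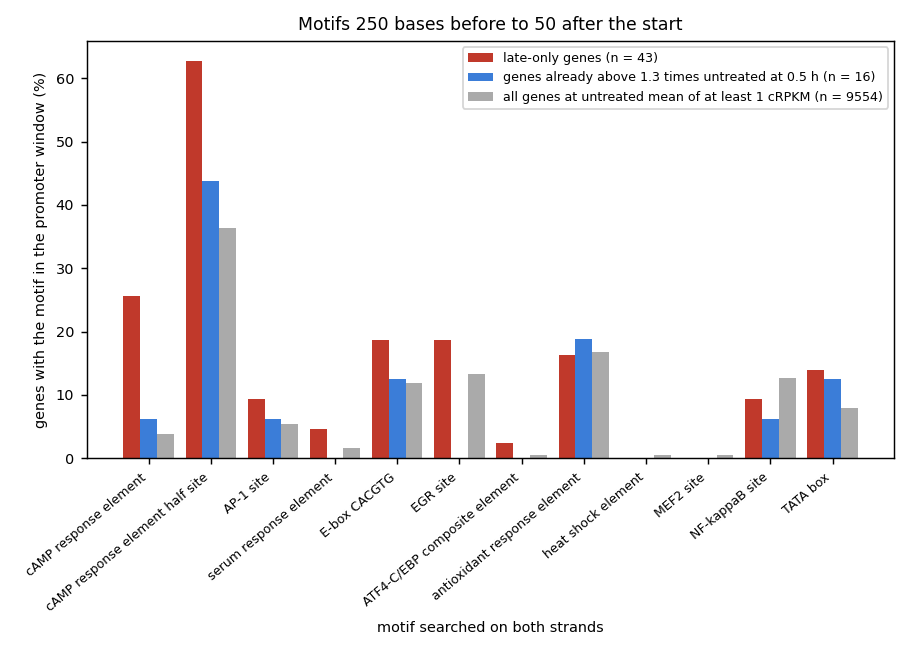
Share of genes, in percent, with each of 12 motifs in the window from 250 bases before to 50 after the start; bars from left to right are late-only genes (n = 43), early-and-late genes (n = 16) and all genes at an untreated mean of at least 1 cRPKM (n = 9554). The full cAMP response element stands at 25.6%, 6.25% and 3.76%.

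Close relatives of the late-only genes were called about as often as genes at large. For 37 of the 48, members of the same family were listed by name after the 48 were known, and 148 of these relatives were tested. Of the 148, 18 (12.2%) were called higher and 10 (6.76%) lower at 3 h by edgeR, beside 8.71% and 6.84% of all genes. With replicate number as a block 36 (24.3%) were higher and 25 (16.9%) lower, beside 18.6% of all genes in each direction. Among the 118 relatives with a mean of at least 1 cRPKM at 3 h or untreated, log2 changes ran from -1.17 to 2.02, and 1, Ajuba, exceeded the late-only gene of its own family. The relatives are described with each group below, and a call is at an edgeR adjusted p under 0.05. Of the calls named there, those of Ell and Limd1 were lost with library totals, and those of Ell, Limd1, Ehd3, Adamts17, Nefh and Cdk13 with limma on log2(cRPKM + 1).

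**Figure D4:**
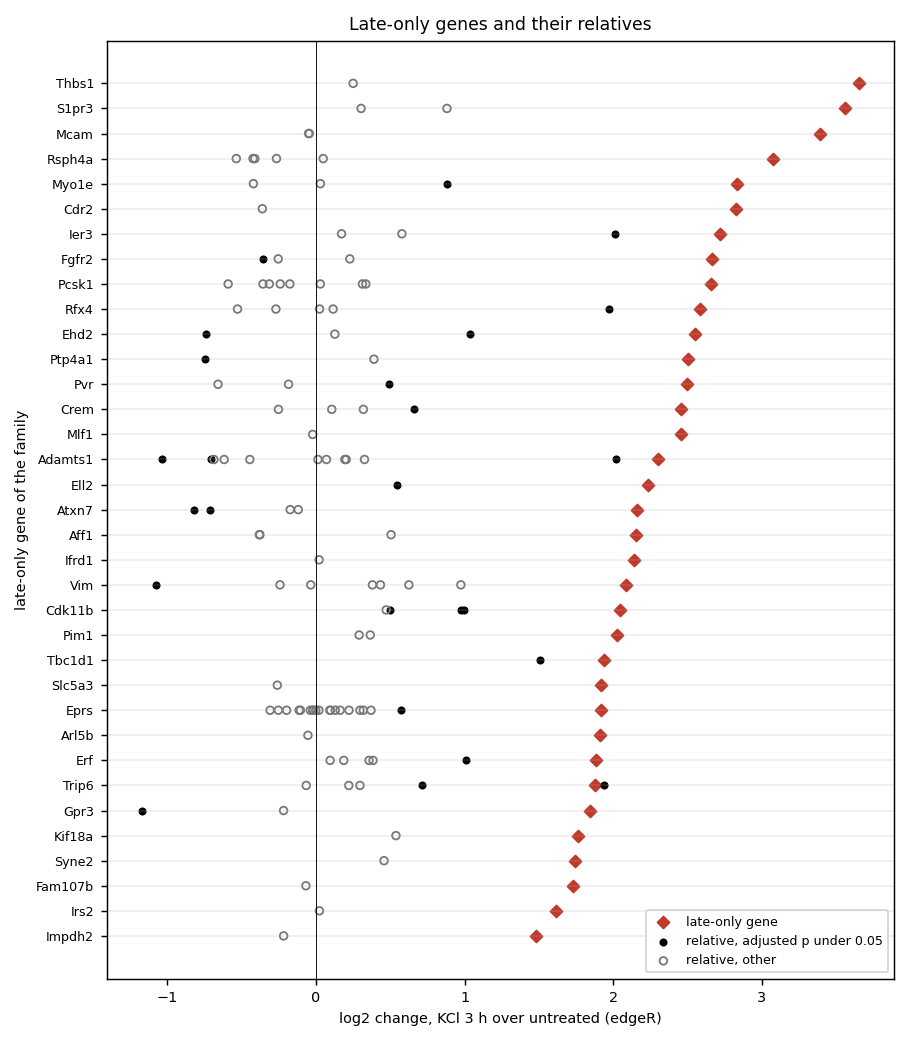
Log2 change at 3 h over untreated for 35 late-only genes (diamonds) and their 118 relatives with a mean of at least 1 cRPKM (circles, filled where the adjusted p is under 0.05), 1 family per row. Most circles lie near 0 while the diamonds lie between 1.48 and 3.65.

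Among secreted proteins and the enzymes that make them, Pcsk1, the prohormone convertase that cuts neuropeptide precursors in secretory granules, stood at 6.83 and 11.9 cRPKM in untreated neurons, 6.79 and 11.01 at 0.5 h and 65.0 and 47.8 at 3 h. Replicate 1 was the lower untreated library and the higher 3 h one, and the 0.5 h values repeated the untreated ones. Of the other convertases, Pcsk7 was called higher and Pcsk2 lower, both with the block alone. Pcsk2, which shares its granules, was at 28.8 and 22.9 cRPKM at 3 h and 37.6 and 43.6 untreated (log2 change -0.59 ± 0.16, adjusted p 0.059), and Furin was at 8.67 and 8.53 and 9.96 and 11.2 (-0.24 ± 0.09, adjusted p 0.13). Thbs1, a matrix glycoprotein that astrocytes are known to secrete and that promotes synapse formation, stood at 1.67 and 1.48 cRPKM in untreated neurons, 1.93 and 1.82 at 0.5 h and 10.0 and 28.6 at 3 h. Both 3 h libraries were far above the rest, and they differed from each other by 2.86 times. Its relative Thbs3 was at 8.41 and 7.45 cRPKM at 3 h and 7.28 and 6.60 untreated (log2 change 0.25 ± 0.12, adjusted p 0.21).

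Adamts1, a secreted metalloprotease that cuts proteoglycans of the matrix, stood at 9.43 and 8.73 cRPKM in untreated neurons, 11.9 and 11.3 at 0.5 h and 35.4 and 51.2 at 3 h. Its 0.5 h libraries were already above both untreated ones, close to the limit of the rule. In its family Adamts9 was called higher at 3 h (log2 change 2.02 ± 0.35, adjusted p 0.021), with 8.64 and 19.8 cRPKM at 3 h and 3.67 and 3.54 untreated. Adamts16 (-1.03 ± 0.12, adjusted p 0.01) and Adamts17 (-0.71 ± 0.17, adjusted p 0.048) were called lower. Dio2, the deiodinase that activates thyroid hormone and is known in brain mainly from glia, stood at 38.4 and 44.9 cRPKM in untreated neurons, 45.1 and 59.0 at 0.5 h and 119.6 and 207 at 3 h. At 3 h it was among the highest late-only genes. Untreated, replicate 2 of Dio2 was 1.17 times replicate 1. Gfap was the extreme astrocyte marker at 13.7 times. The other astrocyte markers ran from 1.004 times (Fgfr3) to 1.49 times (Aldoc), and Dio2 lay within that range. Whether Dio2 follows astrocyte content was not tested.

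Receptors and surface proteins included some of the steepest rises. S1pr3, a G protein-coupled receptor for sphingosine 1-phosphate, stood at 2.29 and 3.88 cRPKM in untreated neurons, 2.51 and 4.56 at 0.5 h and 17.8 and 53.1 at 3 h. Replicate 2 was higher in every group, and at 3 h it was 2.99 times replicate 1. S1pr1 was more abundant at 59.6 and 127 cRPKM at 3 h and 50.2 and 54.2 untreated and had its excess in the same library (log2 change 0.88 ± 0.32, adjusted p 0.12, called higher with the block). Fgfr2, a tyrosine kinase receptor for fibroblast growth factors, stood at 13.8 and 14.98 cRPKM in untreated neurons, 14.6 and 15.3 at 0.5 h and 62.1 and 115 at 3 h. The untreated and 0.5 h libraries were nearly equal and both 3 h libraries were well above them. Fgfr1, at 68.2 and 83.4 cRPKM at 3 h and 61.9 and 72.2 untreated, was not called (0.23 ± 0.13, adjusted p 0.28), and Fgfr3, at 23.4 and 24.99 and 29.9 and 30.0, was lower only with the block. Per kilobase, the mean level of Fgfr2 at 3 h was 88.7 ± 37.6 cRPKM, beside 75.8 ± 10.7 cRPKM for Fgfr1 (SD, n = 2 each); untreated, it was 14.4 ± 0.820 beside 67.1 ± 7.29 cRPKM.

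Gpr3, an orphan receptor that raises cyclic AMP without a known ligand, stood at 1.56 and 2.36 cRPKM in untreated neurons, 1.74 and 3.02 at 0.5 h and 7.12 and 6.36 at 3 h. Both 3 h libraries were above the other 4, while the 0.5 h and untreated libraries overlapped. Its closest relative Gpr12, which signals in the same way, was called lower, with 5.38 and 5.43 cRPKM at 3 h and 12.5 and 12.8 untreated (log2 change -1.17 ± 0.09, adjusted p 0.0047). Gpr6 was at 1.92 and 1.61 cRPKM at 3 h and 1.62 and 2.68 untreated and was not called. Gpr19, another orphan receptor, stood at 13.1 and 13.1 cRPKM in untreated neurons, 16.2 and 16.4 at 0.5 h and 41.5 and 38.8 at 3 h, with close agreement within every pair. Tnfrsf12a, the receptor for the cytokine TWEAK, stood at 5.27 and 6.26 cRPKM in untreated neurons, 6.01 and 7.19 at 0.5 h and 25.7 and 40.5 at 3 h. All 3 h values were at least 3 times any other value of the gene.

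Mcam, an immunoglobulin-type adhesion molecule known from blood vessels, stood at 1.25 and 1.21 cRPKM in untreated neurons, 1.68 and 1.46 at 0.5 h and 7.43 and 17.7 at 3 h. The endothelial marker sum stayed between 0.94 and 1.40 cRPKM in all libraries. Of 7 fibroblast and mural markers, 6 were higher in replicate 2 than in replicate 1 at 3 h. Among them Col1a1 was at 0.14 and 1.87 cRPKM untreated and 0.21 and 1.91 at 3 h. Dcn went the other way, at 40.9 and 23.4 untreated and 42.1 and 20.1 at 3 h. Which cells gave the Mcam reads was not tested. Pvr, an adhesion receptor of the nectin type, was at 15.1 and 28.5 cRPKM at 3 h and 3.76 and 4.22 untreated. Of the nectins, Nectin2 was called higher (0.49 ± 0.09, adjusted p 0.024), whereas Nectin1 was at 14.8 and 11.4 cRPKM at 3 h and 18.6 and 24.4 untreated and was not called.

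Several late-only genes encode regulators of transcription, though the list of transcription factors used below holds only Crem and Creb5. Crem, whose gene encodes both activators and a short repressor that act at cAMP response elements, stood at 2.24 and 2.61 cRPKM in untreated neurons, 2.32 and 2.86 at 0.5 h and 10.1 and 15.6 at 3 h. The count is per gene, so the forms were not told apart. Creb5, a leucine zipper factor that also binds this element, stood at 1.59 and 1.12 cRPKM in untreated neurons, 1.71 and 1.34 at 0.5 h and 5.58 and 5.56 at 3 h. Its 3 h libraries were nearly equal, and its own promoter is among those with the full element. Creb1 itself was at 7.40 and 7.62 cRPKM at 3 h and 7.45 and 7.04 untreated (log2 change 0.11 ± 0.10, adjusted p 0.51). Creb3l2 was called higher (0.66 ± 0.11, adjusted p 0.02).

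Rfx4, a winged-helix factor known from neural progenitors and astrocytes, stood at 12.6 and 12.6 cRPKM in untreated neurons, 13.6 and 13.5 at 0.5 h and 54.0 and 92.8 at 3 h. The 4 libraries without a rise lay within 1 cRPKM of each other, and both 3 h libraries were far above. Among its relatives Rfx2, a regulator of ciliary genes that just missed the expression threshold, was called higher with 4.36 and 3.08 cRPKM at 3 h and 1.01 and 0.970 untreated (1.97 ± 0.23, adjusted p 0.0093). Rfx1, Rfx3 and Rfx7 had log2 changes between -0.27 and 0.12 and were not called. Erf, a repressor of the ETS family that ERK signalling controls, was at 42.1 and 23.9 cRPKM at 3 h and 9.26 and 9.52 untreated. Its relative Etv3, also a repressor, was called higher (1.01 ± 0.15, adjusted p 0.014).

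Ell2 and Aff1 encode parts of the super elongation complex, which releases paused RNA polymerase. Ell2 stood at 1.91 and 2.36 cRPKM in untreated neurons, 1.98 and 2.56 at 0.5 h and 6.76 and 12.7 at 3 h. Aff1 was at 15.6 and 21.9 cRPKM at 3 h and 4.34 and 4.38 untreated. In both genes, as in all 48, the 3 h libraries lay above all 4 others. The alternative subunits moved less: Ell was called higher with a log2 change of 0.54 ± 0.12 (adjusted p 0.038), Aff4, at 52.1 and 49.97 cRPKM at 3 h and 38.8 and 36.0 untreated, was called only with the block, and Aff3 was not called. Atxn7, a subunit of the SAGA coactivator, was at 18.5 and 19.0 cRPKM at 3 h and 4.14 and 4.58 untreated, whereas Atxn7l1 (-0.82 ± 0.17, adjusted p 0.033) and Atxn7l2 (-0.71 ± 0.13, adjusted p 0.025) were called lower.

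Cdk11b, a kinase that partners cyclin L in transcription and splicing, stood at 29.4 and 29.0 cRPKM in untreated neurons, 32.3 and 34.9 at 0.5 h and 88.8 and 145 at 3 h. Its related kinase Cdk12 (0.98 ± 0.10, adjusted p 0.0075) and the cyclin gene Ccnl1 (1.00 ± 0.10, adjusted p 0.0074) were called higher too, and both rose by less than Cdk11b (2.04 ± 0.21). Cdk13 was called higher by less (0.50 ± 0.12, adjusted p 0.045). Ifrd1, a transcriptional coregulator, was at 62.3 and 78.0 cRPKM at 3 h and 17.7 and 15.3 untreated, and its relative Ifrd2 was not called (0.02 ± 0.19, adjusted p 0.95). Zdbf2 and Mest are both imprinted genes expressed from the paternal allele. Zdbf2, a zinc finger gene, stood at 10.2 and 10.6 cRPKM in untreated neurons, 10.8 and 10.5 at 0.5 h and 69.1 and 56.4 at 3 h. Mest stood at 35.4 and 31.3 cRPKM in untreated neurons, 36.9 and 30.9 at 0.5 h and 111 and 96.3 at 3 h. In both genes replicate 1 was slightly above replicate 2 at 3 h. Msantd1, named for its DNA-binding domain, was the least abundant of the group, with 4.80 and 3.64 cRPKM at 3 h and 1.13 and 1.06 untreated.

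Signalling proteins included Ptp4a1, whose gain in cRPKM was exceeded only by that of Vim among the 48. This phosphatase of the PRL family stood at 56.5 and 49.2 cRPKM in untreated neurons, 66.1 and 63.2 at 0.5 h and 178 and 406 at 3 h. The 3 h libraries differed by 2.29 times and were both above all others. Ptp4a2, of like abundance in untreated neurons, was at 71.1 and 64.0 cRPKM at 3 h and 56.6 and 50.6 untreated (log2 change 0.39 ± 0.14, adjusted p 0.11, called higher with the block), and Ptp4a3 was called lower (-0.75 ± 0.09, adjusted p 0.01). Pim1, a survival kinase, stood at 2.18 and 2.00 cRPKM in untreated neurons, 2.13 and 1.79 at 0.5 h and 9.75 and 6.56 at 3 h. Here replicate 1 was the higher 3 h library, and Pim2 and Pim3 were not called (0.29 ± 0.12 and 0.37 ± 0.13).

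Errfi1, an inhibitor of the EGF receptor that growth factors induce, stood at 6.41 and 7.18 cRPKM in untreated neurons, 7.36 and 8.13 at 0.5 h and 28.8 and 21.2 at 3 h. Irs2, an adaptor of insulin and growth factor receptors, stood at 15.1 and 15.2 cRPKM in untreated neurons, 17.4 and 16.7 at 0.5 h and 44.7 and 44.7 at 3 h. Its pairs nearly agreed in each group, and Irs1 was at 6.61 and 4.34 cRPKM at 3 h and 5.86 and 5.41 untreated with no call (0.02 ± 0.25, adjusted p 0.96). Ier3, a stress-induced regulator of cell survival, stood at 2.64 and 3.01 cRPKM in untreated neurons, 3.09 and 4.14 at 0.5 h and 9.04 and 27.4 at 3 h. Its 3 h libraries differed most of all late-only genes. Ier2, which shares only its name class, was called higher (2.01 ± 0.38, adjusted p 0.026).

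Arl5b, a small GTPase of the Golgi, stood at 7.11 and 6.63 cRPKM in untreated neurons, 8.44 and 7.98 at 0.5 h and 28.8 and 20.6 at 3 h, whereas Arl5a was at 20.3 and 20.1 cRPKM at 3 h and 22.3 and 21.4 untreated (-0.05 ± 0.10, adjusted p 0.74). The scarce Arl5c was called higher, with 0.980 and 0.720 cRPKM at 3 h and 0.300 and 0.360 untreated (1.42 ± 0.30, adjusted p 0.033). Tbc1d1, which inactivates Rab GTPases and controls traffic of glucose transporters, stood at 5.20 and 5.02 cRPKM in untreated neurons, 5.40 and 4.98 at 0.5 h and 21.6 and 15.9 at 3 h. Its only close relative Tbc1d4 was called higher as well, with 4.57 and 5.87 cRPKM at 3 h and 1.91 and 1.89 untreated (1.51 ± 0.12, adjusted p 0.0059). Trip6, a LIM-domain adaptor of focal adhesions, was at 8.68 and 14.9 cRPKM at 3 h and 3.24 and 3.39 untreated. In its family Ajuba (1.94 ± 0.33, adjusted p 0.02) and Limd1 (0.71 ± 0.16, adjusted p 0.042) were called higher, and Zyx was called only with the block. Usp2, a deubiquitinase, stood at 7.19 and 9.01 cRPKM in untreated neurons, 7.81 and 10.5 at 0.5 h and 25.01 and 43.8 at 3 h. Rnf217, a ubiquitin ligase, stood at 8.33 and 8.23 cRPKM in untreated neurons, 7.87 and 7.60 at 0.5 h and 47.7 and 29.5 at 3 h. These last 2 moved in opposite directions between the 3 h libraries, Usp2 being higher in replicate 2 and Rnf217 in replicate 1. Itprid2, named for a domain that interacts with inositol trisphosphate receptors, stood at 12.1 and 12.4 cRPKM in untreated neurons, 12.8 and 15.1 at 0.5 h and 33.8 and 66.5 at 3 h.

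In the cytoskeleton and at membranes, Vim, the intermediate filament protein of astrocytes and progenitors, stood at 102 and 84.9 cRPKM in untreated neurons, 103 and 93.1 at 0.5 h and 307 and 460.2 at 3 h. It had the highest untreated level of the 48, and there replicate 2, the library richer in Gfap, was the lower one, whereas at 3 h it was the higher one. No neuronal filament gene was called higher with it, and their directions were mixed. Nefm was at 35.4 and 28.6 cRPKM at 3 h and 30.5 and 37.9 untreated and was not called, and Nefh was called lower (-1.08 ± 0.24, adjusted p 0.038). Nefl and Ina leaned higher (log2 changes 0.50 and 0.34 with the block) and Prph lower (-0.30), and none of them was called with or without the block. Gfap, whose replicates differed 19.3 times at 3 h, was not called (0.63 ± 1.79, adjusted p 0.83), and Nes and Gfap were called higher with the block. Myo1e, a class I myosin that links actin to membranes, stood at 1.90 and 2.02 cRPKM in untreated neurons, 2.11 and 2.16 at 0.5 h and 11.6 and 15.4 at 3 h.

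Ehd2, an ATPase of caveolae, stood at 1.74 and 2.03 cRPKM in untreated neurons, 1.92 and 2.22 at 0.5 h and 7.01 and 14.4 at 3 h. Ehd4 was called higher (1.04 ± 0.23, adjusted p 0.039) and Ehd3 lower (-0.74 ± 0.18, adjusted p 0.047), while the abundant Ehd1 was not called. Kif18a, a kinesin known from mitosis, stood at 1.77 and 1.28 cRPKM in untreated neurons, 1.85 and 1.27 at 0.5 h and 5.12 and 4.84 at 3 h. Syne2, which ties the nucleus to the cytoskeleton, was at 6.39 and 8.79 cRPKM at 3 h and 2.49 and 2.19 untreated, and Fam107b was at 31.4 and 33.3 and 10.7 and 9.52. In both genes each 3 h library was well above the untreated pair.

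Enzymes and transporters of metabolism rose by less than the median late-only gene. Eprs, the synthetase that charges tRNA with glutamate and proline, stood at 66.3 and 55.7 cRPKM in untreated neurons, 66.1 and 54.7 at 0.5 h and 176 and 271 at 3 h. Of 19 other synthetases tested, edgeR called 1, Iars, higher (0.57 ± 0.14, adjusted p 0.049) and 0 lower, beside 8.71% and 6.84% of all genes. The block gave 4 higher and 2 lower, beside 18.6% of all genes in each direction. DESeq2 gave 1 and 1, and 5 and 1 had an unadjusted p under 0.05 in edgeR. Aars was at 91.4 and 82.8 cRPKM at 3 h and 92.7 and 91.5 untreated. Impdh2, the rate-limiting enzyme of guanine nucleotide synthesis, stood at 36.0 and 35.9 cRPKM in untreated neurons, 40.1 and 41.3 at 0.5 h and 93.1 and 100.5 at 3 h. Its relative Impdh1, of like abundance in untreated neurons, was at 33.0 and 28.0 cRPKM at 3 h and 36.8 and 37.1 untreated (-0.22 ± 0.13, adjusted p 0.28). Slc5a3, the transporter of the osmolyte myo-inositol, stood at 4.37 and 3.73 cRPKM in untreated neurons, 4.21 and 3.50 at 0.5 h and 15.8 and 13.7 at 3 h. It shares an exon with Mrps6 on the same strand, which was at 93.6 cRPKM at 3 h and 53.4 untreated on average, so the reads of the pair cannot be fully told apart.

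The genes left had little in common. Rsph4a, a component of ciliary radial spokes, stood at 1.18 and 1.26 cRPKM in untreated neurons, 1.16 and 1.46 at 0.5 h and 11.3 and 8.40 at 3 h. Rsph9 (22.8 and 21.1 cRPKM at 3 h, 22.6 and 21.5 untreated) and Rsph1 (1.23 and 1.71 and 1.60 and 2.06), other spoke proteins, were not called. Cdr2, a coiled-coil protein and an antigen in autoimmune cerebellar degeneration, stood at 3.68 and 2.68 cRPKM in untreated neurons, 4.46 and 3.13 at 0.5 h and 16.3 and 27.5 at 3 h, and Cdr2l was at 6.88 and 5.78 cRPKM at 3 h and 8.89 and 8.04 untreated, called lower only with the block. Mlf1 was at 7.69 and 5.49 cRPKM at 3 h and 1.13 and 1.38 untreated, beside 258 and 242 and 252 and 277 for Mlf2. Aste1 was at 5.85 and 6.07 cRPKM at 3 h and 2.22 and 2.01 untreated. ENSMUSG00000079254 stood at 1.65 and 2.11 cRPKM in untreated neurons, 1.96 and 2.17 at 0.5 h and 15.5 and 11.2 at 3 h.

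Late-only genes were longer at the median than early-and-late genes and close to genes at large. In the GENCODE annotation, which covers 47 of the 48, the late-only genes spanned 25.3 kb at the median (quartiles 12.4 and 65.5 kb). The 21 annotated early-and-late genes spanned 11.6 kb (3.49 and 19.9 kb), and the 12137 annotated genes at an untreated mean of at least 1 cRPKM spanned 26.0 kb (10.9 and 63.5 kb). Spans over 100 kb were found in 10 late-only genes (21.3%), 0 of 21 early-and-late genes and 15.8% of expressed genes. These 3 sets were not tested against each other. All 47 are protein-coding genes, and they lie on 16 chromosomes.

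Only 1 pair of late-only genes were direct neighbours among protein-coding genes: Pcsk1 and Ell2, which lie on the same strand of chromosome 13 with 572 kb between them and both carry the full cAMP response element. Kif18a has Bdnf, 333 kb away, as its downstream neighbour. Of the nearest neighbours tested, 3 of 41 upstream were called higher at 3 h and 1 lower, and 6 of 42 downstream were called higher and 4 lower. Pcsk1, Ell2 and Bdnf are counted among the higher ones. The background is the 8.71% of all genes called higher and 6.84% called lower, and neighbours were not counted with the block. The others included Nop53, which begins 0.884 kb from Ehd2 (log2 change 1.33 ± 0.09, adjusted p 0.0042), and Srrt, 1.98 kb from Trip6 (1.01 ± 0.09, adjusted p 0.0059). The library kit does not mark the strand, so reads of a gene and of an overlapping gene on the other strand cannot be told apart. Among overlapping genes measured at 1 cRPKM or more, this touches Aste1, which shares exon sequence with Atp2c1 (45.3 cRPKM at 3 h and 52.6 untreated). It also touches Impdh2 with Ndufaf3 (14.3 and 17.8), Mest with Copg2 (22.9 and 23.8), Kif18a with Mettl15 (4.04 and 3.24) and Gpr3 with Cd164l2 (1.25 and 1.39). None of these 5 overlapping genes rose as its late-only partner did. Aste1 also overlaps the scarcer Nek11 (0.54 and 0.68), and Ifrd1 the scarcer Gm7008 (0.605 and 0.48). Crem, Pim1, Thbs1, Usp2, Mcam, S1pr3, Irs2, Gpr19, Dio2, Ell2 and Zdbf2 share exon sequence with opposite-strand genes that have no measured level. Whether those rose is not known.

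Most of the wider lists to which late-only genes belong held genes called both ways, with more called higher than lower without the block. Those with more called lower were G protein-coupled receptors, given below, other ion channels and solute carriers. Other ion channels, with Itprid2, counted 8 higher and 25 lower of 196 (18 and 63 with the block). Solute carriers, with Slc5a3, counted 25 and 29 of 328 (44 and 78). Of 67 tested effectors known from the late activity response in neurons, 35 were called higher and 1 lower at 3 h, at a median log2 change of 1.27 (41 and 5 with the block). The list holds 9 late-only genes (Pcsk1, Gpr3, Crem, Ell2, Pim1, Arl5b, Irs2, Errfi1 and Ier3), and of the other 58, 26 were called higher and 1 lower. Ptgs2, the inducible cyclooxygenase, and Gem, a small GTPase that restrains calcium channels, had the largest rises in this list outside the 48, where the mean over the 3 groups reached 1 cRPKM. Ptgs2 was at 3.14 and 4.22 cRPKM at 3 h and 0.09 and 0.21 untreated, and Gem at 24.9 and 85.1 at 3 h and 4.43 and 4.58 untreated. Inhibitors of growth factor and cytokine signalling counted 15 higher and 3 lower of 65 (28 and 11 with the block), with Errfi1 and Irs2 among them, although Irs2 passes receptor signals on and is no inhibitor. Bambi (log2 change 2.02 ± 0.34) and Trib1 (1.54 ± 0.21) rose most in this list outside the 48, with the same limit on the mean.

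Transcription factors outside the families left out counted 44 higher and 14 lower of 255 (82 and 46 with the block), and genes of the integrated stress response and amino acid supply 13 and 0 of 60. In that stress list 24 were higher and 4 lower at an unadjusted p under 0.05 and with the block, and DESeq2 called 19 and 3. G protein-coupled receptors, which hold Gpr3, Gpr19 and S1pr3, counted 26 higher and 28 lower of 226 (47 and 70 with the block), at a median log2 change of -0.26. Outside the 48, in this list, Fzd5, a Wnt receptor (log2 change 2.43 ± 0.27), and Lpar4, a receptor for lysophosphatidic acid (2.06 ± 0.25), rose most. The serotonin receptor gene Htr4 (-1.70 ± 0.18) and Gprin2 (-1.83 ± 0.30), which the list holds by the start of its symbol and which encodes no receptor, fell most. Cytoskeleton and motor genes, with Vim, Myo1e and Kif18a, counted 30 higher and 10 lower of 375 (79 and 51 with the block). Adhesion, matrix and protease genes, with Thbs1 and Adamts1, counted 31 and 25 of 405 (71 and 82), protein kinases, with Fgfr2 and Pim1, 33 and 14 of 231 (60 and 41), and ubiquitin ligases and deubiquitinases, with Usp2 and Rnf217, 45 and 38 of 429 (84 and 87). Small GTPases and their regulators, with Arl5b and Tbc1d1, counted 49 and 25 of 384 (95 and 75). The background for the counts without the block is the 8.71% of all genes called higher and 6.84% called lower, and for those with it 18.6% in each direction.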

How the data were processed

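The 6 libraries were made with the TruSeq RNA kit V2, which keeps no strand, per the labels' protocols. Build mm9 and Bowtie are named in the submitters' processing notes; versions, annotation and the handling of multiply mapped reads: not given in the sources used here. The deposited files hold an RPKM per gene, made by the authors and named cRPKM, and a read count per gene that the authors left without normalization; 1114 genes have no value and are not used here. What the c stands for is not stated there.

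The late-only genes were chosen on cRPKM by the stated rule. Counts were tested in edgeR 4.0.16 (R 4.3.3) with TMM scaling, filterByExpr at a minimum count of 10 (15895 genes, 99.99% of counts); a single quasi-likelihood model of the 6 libraries had only the group as a term. Calls are at a Benjamini-Hochberg adjusted p under 0.05 over all tested genes; errors of levels are SDs of 2 libraries and those of log2 changes are SEs. Over 15895 genes, deviations of same-numbered libraries from their group means had r = 0.79 (0.5 h with untreated), 0.57 (3 h with untreated) and 0.60 (3 h with 0.5 h). On this, and not on the labels, the numbers were taken as a pairing. Blocked values stand where they move a count or call, except for the neighbours. Genes are not independent replicates. Alternatives were library totals, no low-count filter, DESeq2 1.42.0, limma 3.58.1 on log2(cRPKM + 1), the replicate block, each library left out, and other thresholds.

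Symbols (20451 of 21553 genes), spans and neighbours came from GENCODE M21, and promoters from RefSeq, both on GRCm38; the deposited values carry no positions. The longest GENCODE model of Fgfr2 runs over many other genes, which moves no quartile. Values in every library are given for the 15 largest ratios, the 10 largest gains in mean cRPKM and up to 4 genes per list; of list genes outside the 48, up to 2 each way with the largest change at a mean of at least 1 cRPKM. The genes, the lists, the relatives and the motifs were chosen with earlier results of these data known. The edgeR script was tested on simulated data.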

Additional observations from a re-analysis of the deposited data

How the results depend on the processing

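Direction was kept by every late-only gene and every relative called at 3 h under all alternatives run, 803 values in all, of which 181 lost the call and 0 reversed. The kept direction tests nothing for the late-only genes, as the rule sets both 3 h libraries above both untreated ones. The relatives counted here were taken because they were called in this contrast. At 3 h against untreated, 48 late-only genes were called under library totals, DESeq2, limma, no filter and the replicate block, and 9 to 48 when 1 library was left out (9 without untreated replicate 2, 13 without untreated replicate 1, 47 without 3 h replicate 2). At 3 h against 0.5 h, 47 were called under limma and 0 to 47 with 1 library left out (0 without either 0.5 h library). Leaving out a library leaves 2 residual degrees of freedom and 1 arm with a lone sample assumed to vary like the others. The median log2 change of 2.14 was 1.89 under limma on log2(cRPKM + 1), where the added 1 shrinks low genes. The rule found 119 genes at a 3 h ratio of 2 and 30 at a ratio of 3, 60 with cRPKM divided by TMM factors, and 43 to 163 with 1 library left out. Among the sets found under these rules, 13.6% to 24.3% of genes with a promoter window held the full cAMP response element. These sets share many of the 48, so the genes that each rule added were also counted. The element was in 5 of 55 added at a 3 h ratio of 2, 1 of 10 at a 0.5 h ratio of 1.5, 0 of 14 at an untreated mean of 0.5 and 1 of 10 with TMM factors. Without untreated replicate 1 or 2 it was in 0 of 17 and 0 of 7 added genes, and without 0.5 h replicate 2 in 0 of 5. Without 3 h replicate 1 or 2 it was in 5 of 75 and 1 of 19. With the first listed window of each gene alone, a choice made after the data were seen, as was the repeat over other rules, 9 of 43 (20.9%) held it, against 3.46% of expressed genes; with the 250 bases before the start alone the share was 23.3%.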
